A study of Mus musculus with 17 samples.

Results

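The genes described here are those for the chains of collagens, laminins and integrins. They were chosen by name: RefSeq protein-coding genes whose symbols follow the patterns Col, Lam and Itg with a chain letter, with the Itgbl genes left out. The names gave 85 of 21887 protein-coding genes on the chromosomes of the peak list. Of these, 44 code for collagen chains (11 fibrillar, 6 of type IV, 27 of other kinds), 11 for laminin chains, 18 for integrin alpha chains and 9 for integrin beta chains. The other 3 genes, Itgb1bp1, Itgb1bp2 and Itgb3bp, match the pattern but code for proteins named as binding partners, not for integrin chains, and are kept apart from the 82 chain genes.

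Collagens are triple-helical proteins of the extracellular matrix. Fibrillar collagens form the cables of connective tissue, and type IV collagens form the network of basement membranes, the sheets that in brain surround blood vessels and underlie the pial surface. Laminins are trimers of an alpha, a beta and a gamma chain that assemble the other sheet of basement membranes. Integrins are receptors of an alpha and a beta chain that bind these matrix proteins at the cell surface, and some of them are restricted to leukocytes, microglia included. H3K27ac, acetylation of lysine 27 on histone H3, is found at active promoters and enhancers.

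Mouse hypothalamus was profiled in 3 bulk CUT&Tag samples, in which an antibody against H3K27ac directs the Tn5 transposase to marked chromatin, and in 7 DNA and 7 RNA sub-libraries of Paired-Tag, which reads histone marks and RNA from single nuclei and was not analysed here. The labels used here state no strain, sex, age, genotype or treatment of the animals, and they name a single group of bulk samples. The values come from a single peak list for the 3 bulk samples. It holds 183678 peaks with the authors' fold enrichment for each (a linear ratio over the caller's background, 1.31 to 27.97, median 3.18), but no value per sample and no read depth. No spread between animals can therefore be given and no test was made. The intervals below are Wilson 95% intervals for shares and order-statistic 95% intervals for medians, and they cover only how many genes were counted, which are not replicates of the tissue. In bulk tissue, fewer cells of a type and less of the mark per cell cannot be told apart. Of 7 genes that mark hypothalamus, 6 had a peak within 1 kb of a start or end (48.7% to 97.4%), an interval that includes the 68.7% of all protein-coding genes. Their folds ran from 2.07 at Six3 to 9.70 at Agrp, with Sim1 at 4.63 and Rax at 8.61, and Pomc had no such peak. Agrp and Rax have no listed start and were judged by either end.

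H3K27ac peaks lay near nearly all of these genes, and most had a peak at their start, which was seldom a strong one. A gene is called marked here when a peak overlaps 1 kb on either side of a start listed by RefSeq. For the 24 members with no listed start, a peak within 1 kb of either end of the gene counted. By this rule 66 of 85 members were marked (77.6%, 67.7 to 85.2), against 68.7% of all protein-coding genes. Of the 82 chain genes, 64 were marked (78.0%, 67.9 to 85.6). Of the 59 chains with a listed start, 43 were marked (72.9%, 60.4 to 82.6), against 68.3% of all genes with such a start. Of the 23 chains judged by either end, a wider rule, 21 were marked (91.3%, 73.2 to 97.6). The share over all genes without a listed start was not counted apart. With either end used for every gene, 65 of 82 chain genes were marked (79.3%, 69.3 to 86.6), against 69.2% of all genes. Long genes at large were marked more often than short ones, so the shares were also set against genes of like length. Up to 20 kb 6 of 8 chain genes were marked, against 57.2% of all genes of that length. Over 100 kb, 28 of 37 chain genes were marked (75.7%, 59.9 to 86.6), against 89.3%, and from 20 to 100 kb 30 of 37 (81.1%, 65.8 to 90.5), against 80.1%. In the gene span and 10 kb on each side, 81 of 85 members held a peak, against 79.2% of all genes, and 74 of 82 chain genes held one in the upper quartile of fold (4.24 or more), against 73.9%. Chain genes are long, with a median span of 76.3 kb against 17.2 kb for all genes, and a longer window meets more peaks. Over 100 kb, 33 of 37 chain genes held a peak in that upper quartile (89.2%, 75.3 to 95.7), against 96.0% of all genes of that length. From 20 to 100 kb 34 of 37 did (91.9%, 78.7 to 97.2), against 85.3%, and up to 20 kb 7 of 8, against 62.0%. The order of these shares thus turned with length. The members without any peak there were Col3a1, Col4a5, Itgax and Itgb1bp2.

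Where chain genes were marked, the fold at the start was lower than for marked genes at large. Its median was 5.35 over 64 chain genes (interval 4.95 to 6.25), against 8.84 over 15042 marked genes. Only 10 of the 64 lay above that 8.84. Folds of 10 or more occurred at 7 of the 64, which is 10.9%, against 40.2% of all marked genes. The 7 were Lama2, Itga8, Itga4, Lama1, Itgav, Itgb1 and Lama3, and no collagen was among them. With only the peaks in that upper quartile, the share of marked chain genes was 57.3%, below the 59.4% of all genes, so the order of the shares turned with the strength asked of a peak.

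**Figure D1:**
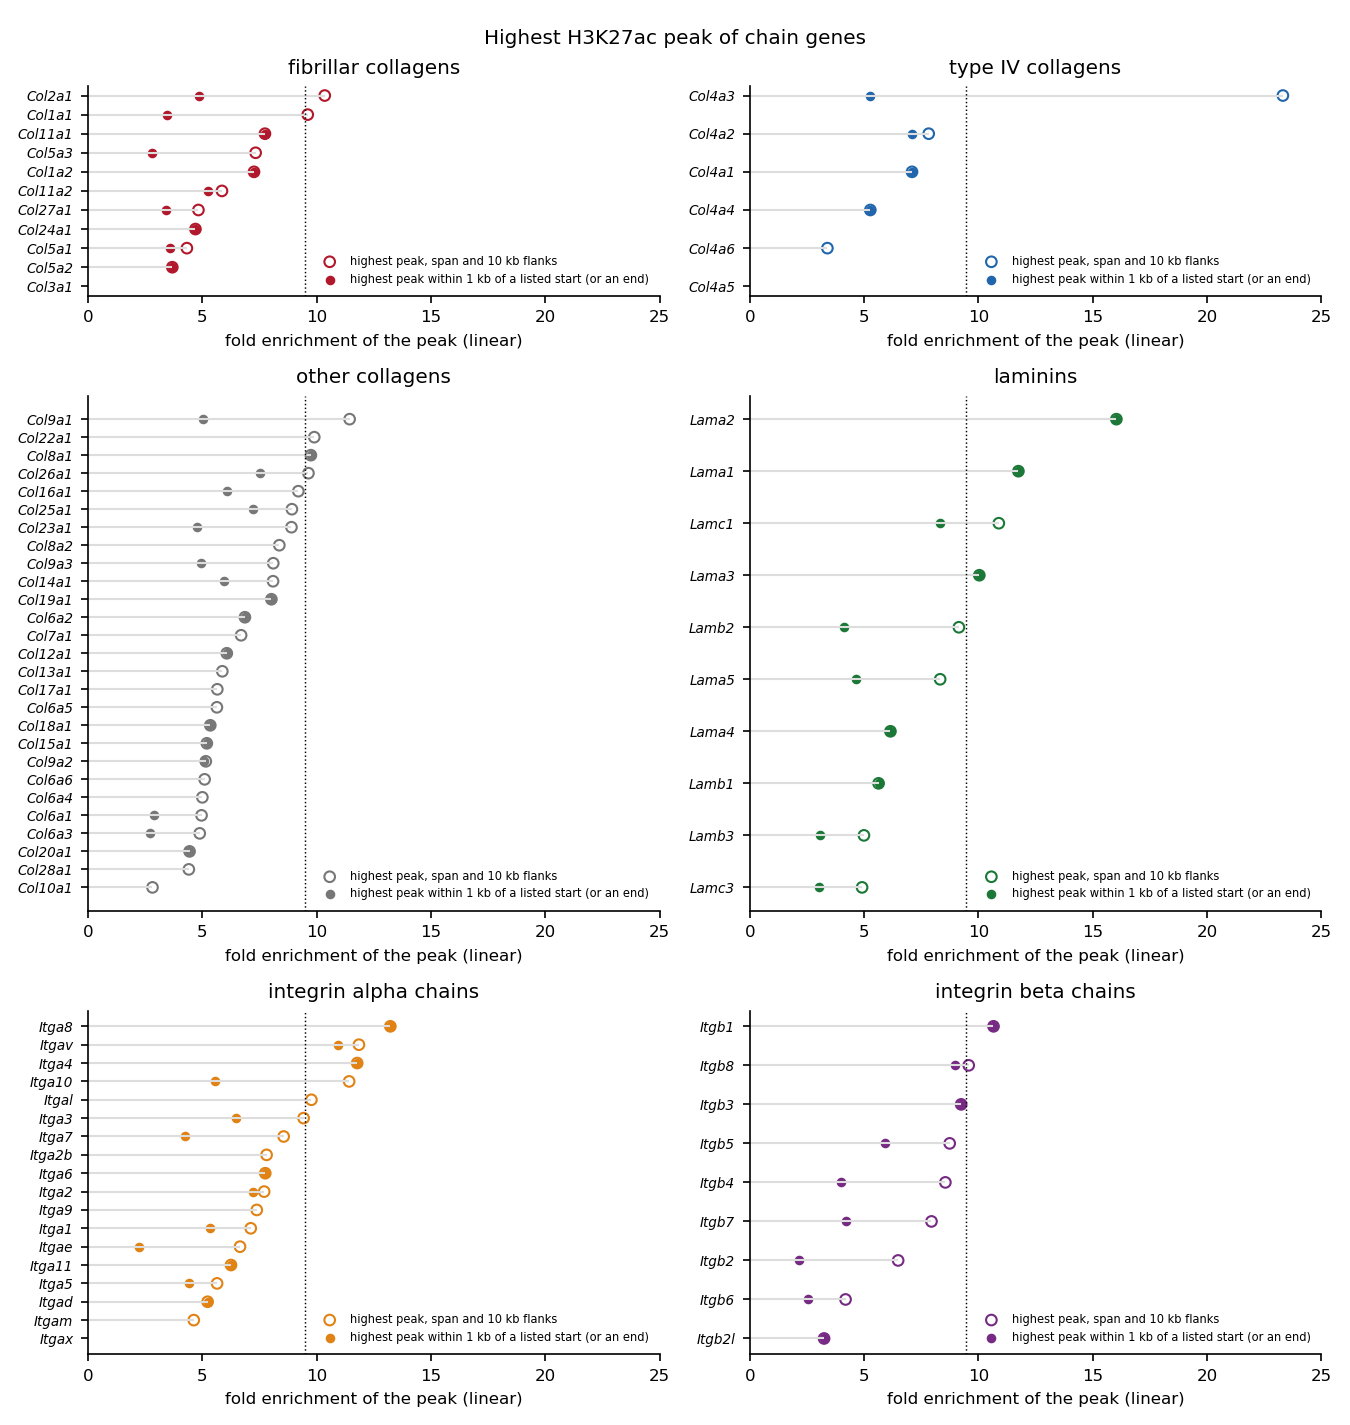
Each panel is a class of chain genes and each row a gene; the x axis is the fold enrichment of a peak (linear). Open circles give the highest peak in the span and 10 kb flanks and filled circles the highest within 1 kb of a listed start, or of an end where no start is listed; the dotted line is the median of the highest fold over all protein-coding genes with a peak, 9.47. Most open circles lie left of the line, Col3a1, Col4a5 and Itgax have no circle, and the Col4a3 value of 23.3 belongs to a peak at an end of its neighbour Mff.

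The share marked did not separate the 3 collagen classes beyond their intervals. Of 11 fibrillar genes 10 were marked (90.9%, 62.3 to 98.4), of 6 type IV genes 4 (66.7%, 30.0 to 90.3) and of 27 other collagens 17 (63.0%, 44.2 to 78.5). The intervals overlap one another and all include the 68.7% of all genes. With only peaks in the upper quartile of fold, the fibrillar share was 45.5% and the type IV share was still 66.7%, so the order of these classes changed. Median folds at marked starts were 4.19 for fibrillar, 6.18 for type IV and 5.35 for other collagens, with an interval of 3.42 to 7.26 for fibrillar and 4.95 to 6.86 for other collagens and a range of 5.27 to 7.10 over the 4 marked type IV genes. The 4 marked type IV genes share their start peaks in pairs, Col4a1 with Col4a2 (7.10) and Col4a3 with Col4a4 (5.27). Neither their share nor their median therefore rests on separate peaks. Only Col8a1, at 9.75, lay above the median of all marked genes among the 31 marked collagens. Beside these classes, all 11 laminins (74.1 to 100.0%) and all 9 integrin beta genes (70.1 to 100.0%) were marked, and 13 of 18 integrin alpha genes (72.2%, 49.1 to 87.5). Among genes with a listed start, 5 of 5 laminins (56.6 to 100.0%) and 6 of 6 integrin beta genes (61.0 to 100.0%) were marked. Both of these intervals include the 68.3% of all genes with such a start.

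**Figure D2:**
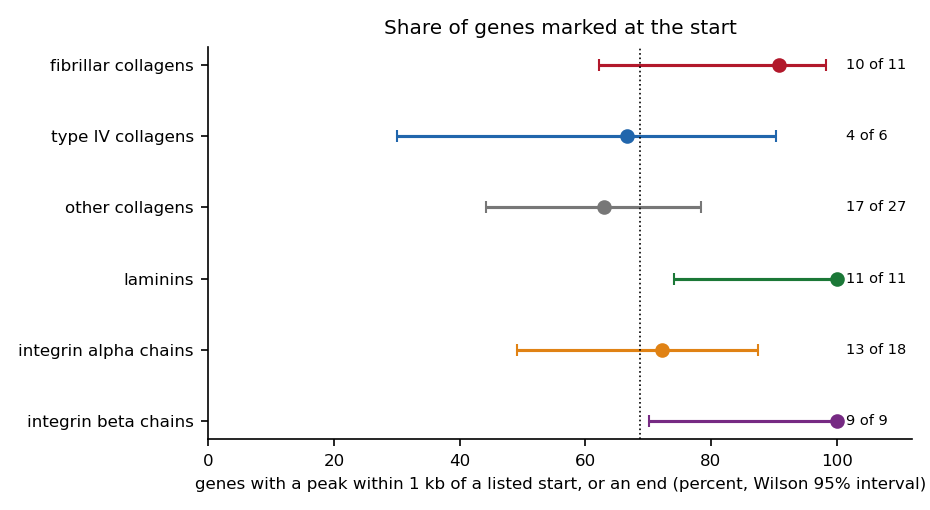
The x axis is the percent of genes with a peak within 1 kb of a listed start, or of an end where no start is listed, for the 6 classes of chain genes; points are shares, bars Wilson 95% intervals, and the dotted line the 68.7% of all protein-coding genes. The 3 collagen intervals span the line, and those of the laminins and integrin beta chains lie above it, from 74.1% and 70.1%. Among genes with a listed start alone, which are not drawn, the laminin and integrin beta intervals begin below the 68.3% of all such genes.

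The fibrillar genes ranged from no peak at all to 33. Col1a2, a chain of type I collagen, had a peak over its start at chr6:4504475-4505957 with a fold of 7.26, and 5 peaks in its window. Its partner chain Col1a1 had 6 peaks, of which the higher of 2 at its lower-coordinate end reached 3.47-fold (chr11:94936847-94937347). The highest peak in the Col1a1 window, 9.61-fold, lay in the flank beyond its lower-coordinate end, at chr11:94927557-94929330, and a second flank peak on the other side had 6.39. Col3a1, the type III chain of skin, vessels and other distensible tissue, had no peak in its span of 38.2 kb or within 10 kb of it. Col5a2, which codes for a type V chain, had a single peak, 300 bp wide with a fold of 3.68, at its upper-coordinate end in a span of 128.952 kb.

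Col1a2 and Col3a1 are set side by side because both code for major fibrillar chains and only the first was marked. Below are the 250 bases before each listed start, 5′ to 3′ on the strand of the gene, from RefSeq in build GRCm38.p6, at chr6:4505368-4505617 (plus strand) and chr1:45311288-45311537 (plus strand). Capitals show the motifs searched for, GGGCGG (the GC box bound by Sp/KLF factors), CCAAT (the box bound by NF-Y), TATAAA (the TATA box) and TGANTCA (the AP-1 motif), on both strands; none of these strings contains another.
Col1a2: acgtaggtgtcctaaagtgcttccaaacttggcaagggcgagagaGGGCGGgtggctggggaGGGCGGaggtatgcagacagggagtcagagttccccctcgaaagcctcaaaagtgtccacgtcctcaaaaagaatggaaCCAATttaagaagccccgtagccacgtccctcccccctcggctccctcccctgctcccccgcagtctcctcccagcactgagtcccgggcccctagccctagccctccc
Col3a1: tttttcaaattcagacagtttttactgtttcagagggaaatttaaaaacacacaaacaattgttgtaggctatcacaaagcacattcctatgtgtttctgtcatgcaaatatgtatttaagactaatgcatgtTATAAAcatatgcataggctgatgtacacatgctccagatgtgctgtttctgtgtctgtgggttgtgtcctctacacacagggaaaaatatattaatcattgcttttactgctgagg
The Col1a2 window held GGGCGG in 2 places and CCAAT in 1, and the Col3a1 window held 1 TATAAA. A match of letters is not a bound site, and other motifs were not searched.

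Among the remaining fibrillar genes, those of cartilage and minor fibrils were marked at folds between percentiles 3.24 (Col5a3) and 41.1 (Col11a1) of marked genes. Col11a1 had 7.74-fold at its start (chr3:114029928-114031270), the highest start value of the class, and only 3 peaks over 190.278 kb. Col2a1, the main chain of cartilage, had 4.87 at its upper-coordinate end and 13 peaks, and its highest peak, 10.4-fold, reached an end of Tmem106c. Col11a2 had 5.27 at its start in a peak that also reached Rxrb. Col24a1 had 4.70 and Col5a1 3.56 at the start, Col27a1 3.42 and Col5a3 2.78. Start values in the class ran from 2.78 to 7.74, all below the median of 8.84 for marked genes at large.

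Peaks inside fibrillar genes were many in some and nearly absent in others of like length. Col27a1 held 33 peaks that covered 20.7% of its window, a value at percentile 94.3 of all protein-coding genes. Col5a1 held 30 peaks over 11.3% of its window. By contrast Col24a1, the longest of the class at 259.542 kb, held 3 peaks over 0.807%, and Col11a1 3 over 1.21%. The peaks of Col27a1 and Col5a1 were weak, none above 4.83 and 4.32. Col5a3 held 15 peaks, with its highest, 7.33-fold, 20.8 kb past the start at chr9:20793310-20794692.

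Fibroblast markers are given beside these genes. Dcn, Lum, Pdgfra, Slc6a13 and Foxc1 were listed as genes of vascular and meningeal fibroblasts, and their use by other cells of the tissue was not examined. Only Foxc1 was marked (4.58-fold), a share of 20.0% (3.62 to 62.4) against 68.7% of all genes. The number of peaks in their windows ran from 0 at Dcn and Lum, which have no listed start, to 6. Whether the share of fibroblasts has a part in the values of Col1a1, Col1a2 and Col3a1 was not tested.

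Type IV collagen genes lie in head-to-head pairs, and the pairs differed. Col4a1 and Col4a2, which code for the ubiquitous type IV chains of vessel walls, are read in opposite directions from listed starts 21 bp apart. A single peak of 1880 bp and 7.10-fold at chr8:11311974-11313853 covered both starts. Col4a1 had 23 peaks in its window and Col4a2 28, covering 10.7% and 13.05% of them. The highest of all, 7.83-fold, lay inside Col4a2, 93.1 kb from its start at chr8:11405217-11406349, and it reached no end of another gene. Their pattern was one of many moderate peaks along the whole gene, like that of Col5a1 and Col27a1 in number.

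The other pairs held few peaks or none. Col4a3 and Col4a4, chains of the kidney filter and of the inner ear, shared a peak of 928 bp and 5.27-fold at chr1:82586651-82587578, and held 4 and 3 peaks over 1.93% and 1.65% of their windows. The 23.3-fold peak in the window of Col4a3 was at chr1:82724759-82725661 in the flank, where it reached an end of the coding gene Mff and of a noncoding gene. Without peaks that reach another coding gene, Col4a4 included, the highest fold in the Col4a3 window was 4.77. Col4a5 had no peak over 213.867 kb and 10 kb on each side. Col4a6 had 3, all near or beyond its far end, 299 to 318 kb from the start, with folds of 2.46 to 3.39. In cover, the 6 genes thus fell into a pair at 10.7% and 13.05% and 4 genes at or below 1.93%, on spans of 114.467 to 308.693 kb. The X chromosome location of Col4a5 and Col4a6 is shared by no other chain gene.

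The listed starts of Col4a5 and Col4a6 are 1343 bp apart and are shown because this pair, laid out like the marked pair Col4a1 and Col4a2, was not marked. The stretches run from 250 bases before the listed start to the edge of the annotated gene, chrX:141475169-141475369 (plus strand, 201 bases) and chrX:141474096-141474326 (minus strand, 231 bases), 5′ to 3′ on the strand of each gene with the same motifs in capitals.
Col4a5: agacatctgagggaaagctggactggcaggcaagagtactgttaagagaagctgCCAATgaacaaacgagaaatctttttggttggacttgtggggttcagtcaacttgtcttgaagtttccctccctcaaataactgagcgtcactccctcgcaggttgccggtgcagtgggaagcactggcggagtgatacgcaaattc
Col4a6: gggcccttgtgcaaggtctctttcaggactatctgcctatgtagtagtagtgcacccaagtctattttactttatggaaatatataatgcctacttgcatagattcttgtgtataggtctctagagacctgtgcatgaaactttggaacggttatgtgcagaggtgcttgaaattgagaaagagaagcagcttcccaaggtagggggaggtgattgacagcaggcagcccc
Col4a5 had 1 CCAAT and Col4a6 none of the 4 motifs in this stretch. In the 300 bases around the listed start, which run on into the gene, both genes held GGGCGG.

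Vessel markers are given beside type IV collagens for their place in vessel walls. Of 5 endothelial genes (Cldn5, Kdr, Flt1, Slco1c1, Tek) 4 were marked, with folds from 3.32 at Flt1 to 7.54 at Kdr, and of 5 mural genes (Pdgfrb, Rgs5, Kcnj8, Abcc9, Notch3) 3, from 4.07 at Notch3 to 5.35 at Kcnj8, while Abcc9 had no peak in its window. The intervals of these shares, 37.6% to 96.4% for endothelial and 23.1% to 88.2% for mural genes, overlap that of the fibroblast markers, 3.62% to 62.4%, and the first 2 include the 68.7% of all genes. The 7.10-fold peak of Col4a1 and Col4a2 lay within the endothelial range and above the mural one. It also lay within the ranges of marked neuron (2.61 to 16.5) and astrocyte markers (4.45 to 8.38). The same held for oligodendrocyte (2.62 to 9.03) and microglial markers (2.32 to 11.5), so the endothelial range does not single it out. The part of vessel cells in these values was not tested.

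**Figure D3:**
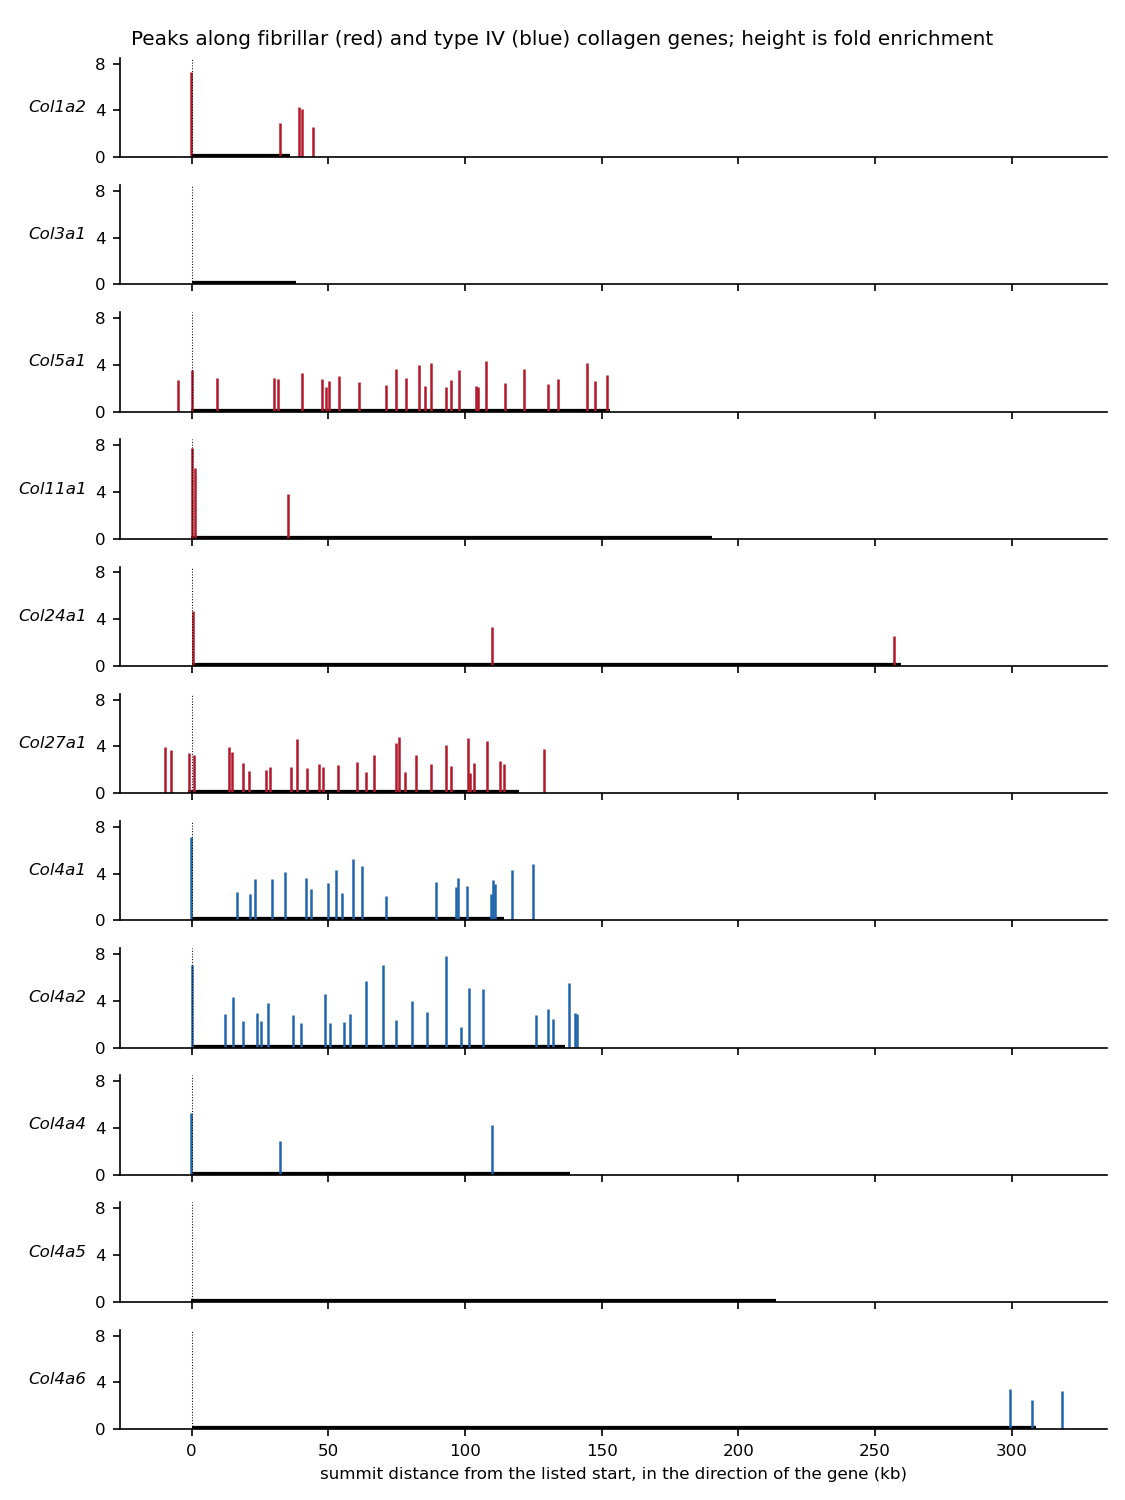
Each row is a collagen gene with a listed start, fibrillar in red and type IV in blue; the x axis is the distance of a peak's summit from the start in kb, in the direction of the gene, the black bar is the gene span and the height of each line the fold enrichment of the peak (linear, 0 to 8.5). Col5a1, Col27a1, Col4a1 and Col4a2 carry 23 to 33 peaks along the gene, Col11a1, Col24a1, Col4a4 and Col4a6 carry 3, and Col3a1 and Col4a5 none.

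Other collagens were all reached by a peak in the window (87.5 to 100.0%), against 79.2% of all genes. Of the 27, 15 span over 100 kb, a length at which 97.3% of all genes held such a peak. At the start, 10 of 27 lacked one. By family, 8 of 9 FACIT genes were marked (collagens that sit on the surface of fibrils), 3 of 6 type VI genes (beaded filaments), 2 of 4 transmembrane collagens, 1 of 3 short-chain collagens and both multiplexins. The intervals of these shares, such as 56.5% to 98.0% for FACIT and 18.8% to 81.2% for type VI genes, all include the 68.7% of all genes. Col8a1, a short-chain collagen of vessel and corneal basement membranes, had 9.75-fold at its start, at chr16:57754571-57756108, and its partner Col8a2 had none there. Col19a1 had 8.02, Col26a1 7.51 and the neuronal transmembrane collagen Col25a1 7.21. The type VI chains Col6a1, Col6a2 and Col6a3, which assemble together, had 2.86, 6.86 and 2.71, and Col6a4, Col6a5 and Col6a6 had no peak at the start. Col17a1, Col13a1, Col7a1, Col10a1, Col28a1 and Col22a1 were the others without one, Col22a1 at either end.

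Several of these genes had their strongest peak well inside the gene. Col9a1, a FACIT chain of cartilage and eye, had 11.4-fold at chr1:24218993-24219718, 24.1 kb past the nearer of its listed starts, and reached no end of another coding gene. Col22a1 had 21 peaks inside, up to 9.89-fold at chr15:72050840-72052180. Col26a1 had 9.64 at chr5:136790755-136791705 and Col25a1 8.91, 180.1 kb past its start. Col13a1, Col6a6 and Col28a1, long genes without a start peak, had 5.87, 5.10 and 4.41 inside. The multiplexins Col15a1 and Col18a1, both of basement membrane zones, held 33 and 25 peaks over 16.4% and 12.9% of their windows, close to the Col4a1 and Col4a2 values, with start folds of 5.19 and 5.35. With these 2 genes counted as basement membrane collagens, the median cover of that class was 6.30% in place of 1.79%. Col6a1 and Col17a1 had 2.15 and 1.83 peaks per 10 kb against a median of 0.947 over all genes, with no peak above 5.65-fold.

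Listed starts within a gene were not marked alike. Col18a1 had 5.35-fold at the start at position 77166530 of chromosome 10 and no peak at that at 77113705, inside the gene. Col9a1 had 2.82 at its first start on chromosome 1, 24177610, and 5.02, in a peak of 2051 bp, at its second, 24195203. Itga3 had 6.46 at 95076714 and 4.00 at 95069198 on chromosome 11. Itgb6 had 2.54, in a peak of 350 bp, at 60722603 on chromosome 2 and none at 60673693. The only start listed for Itga9, an alpha chain close to Itga4, lies inside its span and was not marked, while a 7.38-fold peak lay at the outer end of the gene, chr9:118606393-118607595.

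The strongest start peak among the chain genes was that of a laminin gene. Lama2, the alpha chain of muscle, glial and vascular basement membranes, had 16.0-fold at its start (chr10:27616341-27617740), a value above 93.5% of marked genes. Lama1, an early embryonic and pial alpha chain, had 11.8 at its lower-coordinate end (chr17:67696860-67698011) and Lama3, an epithelial chain, 10.04 at its lower-coordinate end. Lamc1, the common gamma chain, had 8.32. The beta chains were lower, with Lamb1 at 5.63, Lamb2 at 4.12 and Lamb3 at 3.08, as were Lama4, an endothelial chain, at 6.15, Lama5 at 4.64 and Lamc3 at 3.01. Of the 11, 5 have a listed start, all of them marked, and the other 6 were judged by either end. Among peaks in the upper quartile of fold, 8 of 11 laminins (72.7%) stayed marked.

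The number of peaks inside laminin genes varied widely, also among those with a strong start peak. Lama2 held 35 peaks over a span of 635.907 kb, which covered 2.40% of its window, and the highest away from the start had 6.28. Lama3 held 30 over 249.597 kb, covering 7.96%. Lama1 held 7 over 125.519 kb and Lama4 only 2 over 144.674 kb. Lamc1 held 34 over 113.865 kb, covering 15.5%, and its highest, 10.9-fold at chr1:153225631-153226613, lay inside the gene and reached no end of another coding gene. Lamc1 was also the densest at 2.54 peaks per 10 kb, and Lamb3, Lama5 and Lamc3 had 2.16, 2.01 and 1.59. These last had no peak above 5.12 that did not reach another coding gene.

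Integrin alpha genes ran from 13.2-fold to no peak. Among the chains that bind RGD motifs, Itga8, the partner of beta1 in kidney and smooth muscle, had 13.2 (chr2:12300678-12302220), Itgav, which pairs with several beta chains, 10.9 (chr2:83723865-83725350), and Itga5, the fibronectin receptor chain, 4.40. Itga2b, the platelet chain, had no start peak but 3 peaks inside, up to 7.81-fold. Itga4, the lymphocyte and VCAM receptor chain, had 11.8 at its start (chr2:79255137-79256311), and that was the only peak in its window. The laminin receptor chains Itga3, Itga6 and Itga7 had 6.46, 7.75 and 4.22. The collagen receptor chains Itga1, Itga2 and Itga11 had 5.35, 7.22 and 6.25. The highest peaks in the windows of Itgav and Itga10, 11.8-fold and 11.4-fold, lay in a flank at Fam171b and Ankrd35. In density, Itga5, Itga11, Itga7 and Itga3 led, with 2.35, 2.06, 2.01 and 1.72 peaks per 10 kb.

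Of the leukocyte integrin alpha genes Itgal, Itgam, Itgax, Itgad and Itgae, 2 of 5 were marked, with an interval of 11.8% to 76.9% that includes the 68.7% of all genes. These were Itgae at 2.23-fold and Itgad at 5.23, the second in a peak that reached Cox6a2. Both have no listed start and were judged by either end. Of the 5, only Itgam and Itgax have a listed start, and neither was marked. Itgam, the microglial and myeloid chain, had 3 peaks in its window, the highest 4.62-fold inside the gene and 36.9 kb from the start, and Itgax had none. Itgal had 7 inside, up to 7.74-fold, and its highest, 9.77, was in the flank at Zfp768. Itgb2, the beta partner of all but Itgae, had 2.17-fold at an end, in a peak of 270 bp. In the same list 4 of 5 microglial markers were marked, Csf1r at 2.32-fold, Cx3cr1 at 3.03 and Tmem119 at 5.60 among them, and P2ry12 had 11 peaks but none at its start. Of the blood markers Cd3d, Cd3e, Cd79a, Klf1 and Ptprc only Klf1 was marked (3.62% to 62.4%), against 68.7% of all genes. Cd3d and Cd3e had no peak in their windows, while Cd79a had 6, up to 9.62-fold, and Ptprc 3, up to 9.39. The part of these cells was not tested.

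Every integrin beta gene was marked, with folds from 2.17 to 10.7. Itgb1, the partner of most matrix-binding alpha chains, led with 10.7 at its start (chr8:128685148-128686491). Itgb3, the partner of Itgav and Itga2b, had 9.23 at its lower-coordinate end and Itgb8, which with Itgav activates TGF-beta in brain, 8.98. Itgb5 had 5.93, Itgb7 4.22, Itgb4 3.99, Itgb2l 3.25 and Itgb6 2.54. Itgb8 and Itgb5 each had a stronger peak inside, 9.58-fold and 18.6 kb past the start in Itgb8 and 8.74 and 30.5 kb past it in Itgb5. Itgb7 too had its strongest, 7.95, inside. In density Itgb8, Itgb7, Itgb4 and Itgb5 led, with 1.89, 1.87, 1.86 and 1.65 peaks per 10 kb. Above the median −log10 q of the list 66.7% of beta genes stayed marked, against 64.6% of all genes, and in the upper quartile of fold 44.4% did, against 59.4%. Of the 9 genes 5 thus had only weaker peaks at the start.

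The starts of Itga8, Itga4 and Itgb1 are shown because they had the highest folds among integrins whose upstream bases lie outside the annotated gene for most of the window. The stretches run to the edge of the gene, at chr2:12301986-12302194 (minus strand, 209 bases), chr2:79255176-79255425 (plus strand) and chr8:128685404-128685653 (plus strand), 5′ to 3′ with the same motifs in capitals.
Itga8: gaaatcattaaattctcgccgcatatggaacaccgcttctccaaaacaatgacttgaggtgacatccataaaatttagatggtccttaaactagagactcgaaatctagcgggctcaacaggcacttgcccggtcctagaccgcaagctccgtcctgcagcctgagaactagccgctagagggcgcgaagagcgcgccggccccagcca
Itga4: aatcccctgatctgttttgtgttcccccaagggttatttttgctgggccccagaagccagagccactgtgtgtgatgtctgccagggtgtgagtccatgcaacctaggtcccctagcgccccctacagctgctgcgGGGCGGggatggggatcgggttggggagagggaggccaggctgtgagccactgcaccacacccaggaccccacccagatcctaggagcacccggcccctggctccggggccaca
Itgb1: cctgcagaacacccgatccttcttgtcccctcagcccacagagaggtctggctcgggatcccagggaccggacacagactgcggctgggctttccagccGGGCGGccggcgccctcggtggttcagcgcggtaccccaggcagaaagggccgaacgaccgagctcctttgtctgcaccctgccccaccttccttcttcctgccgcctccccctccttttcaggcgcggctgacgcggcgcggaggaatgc
Itga4 and Itgb1 each held 1 GGGCGG and Itga8 none of the 4 motifs.

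The genes that match the pattern without coding for a chain were strongly marked or not at all. Itgb3bp had 14.2-fold at its start and Itgb1bp1 11.6, in peaks that also reached Efcab7 and Cpsf3, and Itgb1bp2 had no peak.

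Long chain genes had less of their window under peaks than long genes at large. Over 100 kb, the 37 chain genes had a median cover of 3.47% (interval 2.19 to 5.57), against 7.54% over 2429 genes, and 10 of the 37 (27.03%) held fewer than 5 peaks, against 13.1%. From 20 to 100 kb the medians were 9.90% (6.87 to 10.9) for 37 chain genes and 7.69% for 7609 genes. Over all 82 chain genes the median was 8.17%, against 7.50%. These are descriptions of 1 list. The classes mixed within each range: Col27a1, Col15a1 and Lamc1 lay above 15% and Col5a2, Col24a1 and Lama4 below 1%.

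**Figure D4:**
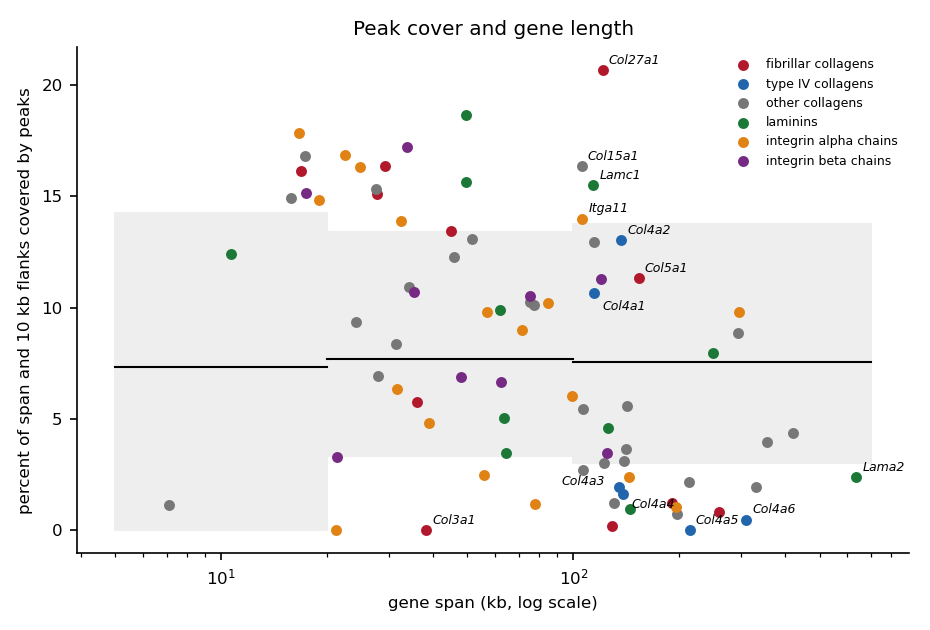
Each point is a chain gene; the x axis is the gene span in kb (log scale) and the y axis the percent of the span and 10 kb flanks covered by peaks. Black lines are the medians and grey bands the ranges from the lower to the upper quartile of all protein-coding genes up to 20 kb, from 20 to 100 kb and over 100 kb. Col4a1 and Col4a2 lie above the line at 7.54% and Col4a3, Col4a4, Col4a5 and Col4a6 at the bottom of the plot.

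Most peaks of these genes were inside them and weak. For the 61 members with a listed start, 549 of 717 peaks (76.6%) had their summit inside the gene and away from its start and ends, with a median fold of 2.98, and 53 (7.39%) overlapped 1 kb around a start, with a median of 5.27. The same shares by location were not counted over all genes. In the 36 chain genes over 50 kb that have a listed start, peaks inside were spread evenly, with 23.9%, 25.4%, 24.8% and 25.8% of 472 in 4 successive stretches of equal length. Over all 3867 such genes the shares were close to these, at 21.9%, 24.8%, 25.5% and 27.8% of 71285. Median folds by stretch were 2.98 to 3.11 for chain genes and 3.03 to 3.09 for all, so weak inside peaks are not particular to chain genes. The highest peak of a chain gene lay in a flank in 21 of 79 cases, and in 14 of those it reached an end of another coding gene. Windows of members overlapped in 5 pairs, Col9a1 with Col19a1, Col4a3 with Col4a4, Itgam with Itgax, Col4a1 with Col4a2 and Col4a5 with Col4a6, so that 959 peak and gene combinations came from 955 peaks. Of the 66 marked members, 9 had a start peak that also reached an end of another coding gene, so the gene it belongs to is uncertain.

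Chain gene starts were poorer in CpG than those of all genes, and the CpG-rich ones among them had weaker peaks than CpG-rich starts of all genes. Over the 300 bases that RefSeq gives around a start (250 before, 50 after), the median ratio of observed to expected CpG was 0.442 for 65 chain gene starts and 0.567 for 21263 starts of all protein-coding genes. Of chain starts with a ratio of at least 0.6, 17 of 19 were marked (89.5%), against 96.2% of all such starts, with a median fold of 5.93 against 9.76. Of those under 0.6, 30 of 46 were marked (65.2%, 50.8 to 77.3), against 44.6%, with a median of 5.23 against 5.99. By band, 9 of 12 were marked under 0.2 (46.8% to 91.1%), against 21.1%, 10 of 18 from 0.2 to 0.4 (33.7% to 75.4%), against 48.1%, and 11 of 16 from 0.4 to 0.6 (44.4% to 85.8%), against 79.9%. Lama2 stood apart, with a ratio of 0.0527 and a fold passed by only 178 of the 4961 marked starts under 0.6. GGGCGG occurred in 53.8% of chain starts and 46.2% of all, CCAAT in 26.2% and 38.2%, TATAAA in 7.69% and 12.6%, and TGANTCA in 6.15% and 6.99%, counted on both strands.

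**Figure D5:**
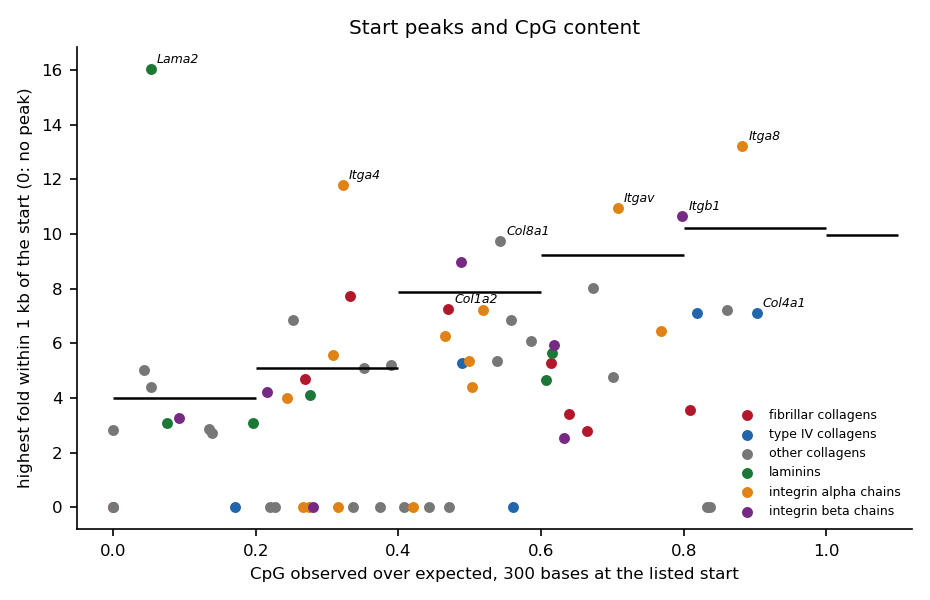
Each point is a listed start of a chain gene; the x axis is the ratio of observed to expected CpG in 300 bases and the y axis the highest fold within 1 kb, with 0 for no peak. Black lines are median folds of marked starts of all protein-coding genes in bands of the ratio; Lama2 and Itga4 lie far above the line of their band, and at ratios over 0.6 only Itgav, Itgb1 and Itga8 lie above theirs.

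Genes that process, join or read out these chains were marked in shares that overlap those of the chain genes or exceed them. Of 29 genes for collagen folding, cross-linking and cleavage 26 were marked (89.7%, 73.6 to 96.4), with the prolyl hydroxylase gene P4ha1 at 18.7-fold, the chaperone gene Serpinh1 at 3.19 and the cross-linking oxidase gene Lox at 3.97. Of 16 basement membrane partners 14 were marked (87.5%), with the laminin receptor gene Dag1 at 13.5, the nidogen gene Nid2 at 9.003 and the perlecan gene Hspg2 at 4.45, while Nid1 and Tinagl1 had no peak at the start. All 24 genes for integrin adaptors were marked (86.2 to 100.0%), among them Vcl at 13.5, the focal adhesion kinase gene Ptk2 at 13.02 and Tln1 at 8.85. Of 14 other integrin ligands 10 were marked (71.4%, 45.4 to 88.3), Vtn at 11.1, Fn1 at 6.72 and Tnr at 7.42 among them, and Fgb, Fgg, Vwf and Spp1 were not. The background is the same 68.7% of all genes. Median folds at marked starts were 7.89 (5.71 to 9.36), 6.19 (4.11 to 9.003), 6.39 (3.30 to 9.41) and 5.63 (4.29 to 7.42) in these 4 lists. For the chain genes the median was 5.35 (4.95 to 6.25), an interval that overlaps all 4, and for all marked genes 8.84. List genes without a listed start, Lox, Nid2, Ptk2 and Fn1 among them, were judged by either end.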

How the data were processed

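A single peak list for 3 bulk H3K27ac CUT&Tag samples of mouse hypothalamus was analysed. Per the submitters' processing notes, mm10 was the build and cutadapt 4.5, BWA 0.7.17 and MACS2 were among the tools, beside UMI-tools 1.1.4 and STAR 2.7.10a; which step each served is not stated there. How peaks were called and replicates joined is not given in the sources used here. Fold ratio, −log10 q, score and summit offset are values of each peak as deposited by the authors, read by the order of the narrowPeak format. The score was not used further. Replicates cannot be compared and depth is unknown.

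Genes and spans came from RefSeq for GRCm38.p6, the assembly of mm10. A promoter table gave starts for 61 of 85 members, and for 17492 of 21887 genes. The members without an entry were judged by either end. Protein sequences were not used here. The members, lists and classes were chosen with earlier results of these data known. Named were every fibrillar and type IV gene, in other classes the 4 genes highest in fold, the 4 densest in peaks and those unmarked (for other collagens the 4 longest of these), and genes with overlapping windows; further genes were named after their values were seen. Peaks per 10 kb and percent cover used the span and 10 kb flanks. Overlaps were computed in Python 3.11.15 with numpy 2.4.6, pandas 2.3.3 and scipy 1.17.1, checked on simulated intervals against a count base by base. Coordinates are 1-based. A few items are counted but not reported here by name.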

Additional observations from a re-analysis of the deposited data

How the results depend on the processing

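Of 108 values under other settings, 98 stayed within the interval of the reported value. With only peaks in the upper quartile of fold, the share marked at the start was 57.3% for all chain genes, 45.5% for fibrillar collagens, 72.7% for laminins and 44.4% for integrin beta chains, against 59.4% of all genes. With only peaks above the median −log10 q, it was 66.7% for integrin beta chains, and the median cover was 4.27% for all chain genes and 2.95% for other collagens, against 5.04% for all genes. The median of the highest fold over chain genes, 7.38, was 6.12 in the span alone, 6.08 with only summits nearest to the gene and 6.07 with peaks that reach no other coding gene, the last chosen after seeing the data, as was the share among genes with a listed start. Windows of 500 and 2500 bp, summits in place of overlap and either end in place of the start left each class within its interval. No paired analysis was possible because the peak list holds no value per replicate, and for the same reason no replicate could be left out. Depth is unknown, so a gene without a peak is one without a peak in this list.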
